A study of Mus musculus with 16 samples.

Results

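Imprinted genes are expressed mainly from the copy inherited from one parent, and many of them are abundant in the hypothalamus, the brain region that sets body temperature, feeding and reproduction. Described here are 10 of them, chosen by gene symbol from the 28683 genes of the count tables: the noncoding RNAs Meg3, Rian and Mirg, and the protein-coding genes Dlk1, Peg3, Ndn, Snrpn, Nap1l5, Nnat and Gnas. All 10 were listed in each of the 16 libraries. The counts do not tell the maternal from the paternal copy, so that imprinting itself was not measured and the values are the summed output of both copies.

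Single cells of the hypothalamus and preoptic area were profiled by Drop-seq, a droplet method that counts the 3′ ends of RNA molecules by unique molecular identifiers (UMIs), with 1 library per mouse. All mice were female, on a CD-1;129P2 mixed background, and 8 to 10 weeks old when 28 daily subcutaneous injections began. Wild-type mice were littermates without Cre and received vehicle in corn oil (WT oil, n = 3) or 0.1 mg/kg tamoxifen, a ligand of estrogen receptors (WT tamoxifen, n = 5). Esr1cKO mice carried the floxed Esr1 allele and the Nkx2-1-Cre transgene, which is active in the Nkx2-1 lineage only, so that cells outside that lineage keep estrogen receptor alpha; 4 of them received oil and 4 tamoxifen. The study asked how tamoxifen acts on the hypothalamus and whether its effects need Esr1.

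In the mouse, Dlk1 and the chain of noncoding RNAs that begins with Meg3 lie in one imprinted domain on chromosome 12. Meg3, Rian and Mirg are read from the maternal copy and carry microRNAs and small nucleolar RNAs in their introns and exons, whereas Dlk1, a membrane protein related to Notch ligands, is read from the paternal copy. Ndn, which encodes the growth suppressor necdin, and Snrpn, which encodes a spliceosomal protein, belong to the paternally expressed region whose human counterpart is lost in Prader-Willi syndrome. Peg3 is a paternally expressed zinc finger protein studied for maternal behavior, Nap1l5 a small paternally expressed gene inside an intron of Herc3, and Nnat (neuronatin) a paternally expressed proteolipid of the endoplasmic reticulum inside an intron of Blcap. Gnas is a complex locus that encodes the stimulatory G protein alpha subunit and further transcripts of either parental copy.

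The libraries held 2634253 to 8038158 UMIs, and 55675 cells were kept, with a median depth of 563 to 819 UMIs per cell in a library. Cells were clustered without the 10 genes and without 62 other imprinted genes among the genes that define clusters, so that no gene described here set its own cluster. The 9 named cell types each held at least 3 detected markers of their name and were neurons (9114 cells), astrocytes (13580), oligodendrocytes (9240), endothelial cells (7190), microglia (5403), polydendrocytes, which are oligodendrocyte precursors (4424), ependymal cells (3182), mural cells (2362) and fibroblasts (966). In the endothelial cluster, 7 mural and 4 red blood cell markers passed too. In microglia, 5 macrophage and 3 neutrophil markers did. The ependymal cluster passed all 8 of its markers, Foxj1 and Rax among them, and 3 of choroid plexus. Kinds of cell within a type other than neurons were not separated. In neurons, Snap25 averaged 1206 ± 134 CPM (SD, n = 16), where CPM is counts per 1000000 UMIs of that cell type in that library. The median depth was 1489.5 UMIs in neurons and 482 in astrocytes. WT oil replicate 3 and Esr1cKO tamoxifen replicate 3 stood apart from the other 14 libraries: a first principal component of the libraries took 53.5% of the variance, with scores of 56.9 and 54.3 against -19.8 to -2.25. WT tamoxifen replicates 4 and 5, Esr1cKO oil replicate 4 and Esr1cKO tamoxifen replicate 4 shared 303 to 359 kept barcodes per pair, against at most 42 in any other pair, and cells of the same barcode correlated in profile with a median r of 0.527 to 0.577 against 0.117 to 0.128 for other barcodes. Over all 16 libraries, 1717 cells, 333 of them neurons, had a barcode found in more than 1 library, and results were computed with and without these cells and with and without the 4 libraries. The study processed 4 mice on each of 4 days; the labels do not give the day of a mouse, but the 2 libraries that stood apart fall in the third run of 4 successive library numbers and the 4 libraries that share barcodes make up the fourth. Esr1 itself, in neurons, had medians of 49.0 CPM in WT oil, 63.8 in WT tamoxifen, 47.1 in Esr1cKO oil and 60.0 in Esr1cKO tamoxifen mice, with overlapping groups. A count of 3′ ends need not see the deleted exon, so these values do not check the genotype labels.

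Meg3 occupies chr12:109541001-109571726 on the plus strand, Rian chr12:109603940-109661716, Mirg chr12:109729764-109749460 and Dlk1 chr12:109452823-109463336, all on the plus strand of GRCm38 (GENCODE annotation). Peg3 lies at chr7:6703892-6730431 on the minus strand, Ndn at chr7:62346569-62350262 on the plus strand and Snrpn at chr7:59982495-60140219 on the minus strand. Nnat lies at chr2:157560078-157562522 on the plus strand, Gnas at chr2:174284320-174346744 on the plus strand and Nap1l5 at chr6:58905233-58907076 on the minus strand. The strand used in counting is not given in the sources used here. Nnat (36047 UMIs) overlaps Blcap (5767 UMIs) and Nap1l5 (72573 UMIs) overlaps Herc3 (2174 UMIs) on the opposite strand, so that reads of each pair could be shared. Snrpn also overlaps Snurf on its own strand, which was not analysed here.

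The annotation places 35 mature microRNAs inside the 3 noncoding genes: 3 in Meg3, all in its exons, 6 in Rian, none in its exons, and 26 in Mirg, 8 of them in its exons. These sequences are shown because Meg3, Rian and Mirg are their host transcripts. Mature microRNAs have no poly(A) tail, by which this method captures RNA, and were not measured. The 3 of Meg3 each have a seed of their own (bases 2 to 8, in capitals; RefSeq, GRCm38.p6):
miR-1906: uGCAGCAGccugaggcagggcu
miR-770-5p: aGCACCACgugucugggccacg
miR-770-3p: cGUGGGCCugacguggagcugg
The 35 microRNAs have 34 different seeds. The one seed that occurs more than once belongs to miR-453 and miR-496a-5p of Mirg. With miR-409-5p and miR-410-5p these are the 4 whose seeds begin with GGUU, a start picked from these sequences. In the whole table the seeds of 13 of the 1738 mature microRNAs, or 0.748%, begin so, and no test was made:
miR-453: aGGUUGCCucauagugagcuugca
miR-496a-5p: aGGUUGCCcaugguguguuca
miR-409-5p: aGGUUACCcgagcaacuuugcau
miR-410-5p: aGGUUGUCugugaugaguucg
From Rian, miR-370-3p may serve as an example of an intronic microRNA, and from Mirg, miR-134-5p as one inside an exon:
miR-370-3p: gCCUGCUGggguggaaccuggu
miR-134-5p: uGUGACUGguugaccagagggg

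The 250 bases before the RefSeq start of Meg3, Peg3 and Nnat are shown because each of these windows holds a motif that few promoters hold. Searched on both strands were the cyclic AMP response element TGACGTCA, the NRF1 palindrome GCGCATGCGC and TATAAA. They occurred in 1.55%, 0.782% and 12.4% of 32851 windows of the same length, and the median window held 6 CpG. The window of Meg3 (chr12:109540746-109540995, plus strand) held 10 CpG, 1 cyclic AMP response element and 2 TATAAA, which overlap on opposite strands (motifs in capitals):
Meg3: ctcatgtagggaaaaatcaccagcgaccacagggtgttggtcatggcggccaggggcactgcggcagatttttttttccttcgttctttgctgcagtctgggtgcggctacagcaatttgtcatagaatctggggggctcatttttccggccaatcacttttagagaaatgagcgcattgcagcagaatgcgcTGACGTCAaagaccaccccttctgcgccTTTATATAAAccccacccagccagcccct
The window of Peg3 (chr7:6730420-6730669, minus strand) held 8 CpG and 1 cyclic AMP response element:
Peg3: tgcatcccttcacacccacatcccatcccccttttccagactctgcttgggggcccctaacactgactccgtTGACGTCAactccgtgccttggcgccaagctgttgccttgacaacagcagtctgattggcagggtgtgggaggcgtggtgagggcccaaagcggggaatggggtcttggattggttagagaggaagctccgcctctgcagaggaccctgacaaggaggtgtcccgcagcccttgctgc
The window of Nnat (chr2:157559828-157560077, plus strand) held 12 CpG and 1 NRF1 palindrome:
Nnat: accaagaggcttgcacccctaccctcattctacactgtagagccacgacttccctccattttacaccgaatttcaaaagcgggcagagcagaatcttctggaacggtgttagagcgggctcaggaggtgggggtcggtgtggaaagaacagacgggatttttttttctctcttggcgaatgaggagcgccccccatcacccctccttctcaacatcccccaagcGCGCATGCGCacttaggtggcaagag

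In neurons, 9 of the 10 genes were higher than in the other cells of the same library and Nnat was lower, each library giving both sums. The background was wide, since 39.0% of the 15412 genes tested were higher in neurons and 40.7% were lower (edgeR quasi-likelihood test with the library as a block, Benjamini-Hochberg adjusted p under 0.05), so that the sizes carry more than the count. The 9 log2 fold changes ran from 2.78 to 5.20, and every one of them held in 16 of 16 libraries. Of all UMIs of a gene, neurons held 94.5% for Meg3, 93.1% for Dlk1, 89.4% for Rian, 89.3% for Mirg, 87.3% for Gnas, 86.3% for Ndn, 84.8% for Nap1l5, 81.5% for Peg3, 76.8% for Snrpn and 24.1% for Nnat, where neurons were 16.4% of the cells and held 31.2% of all UMIs.

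**Figure D1:**
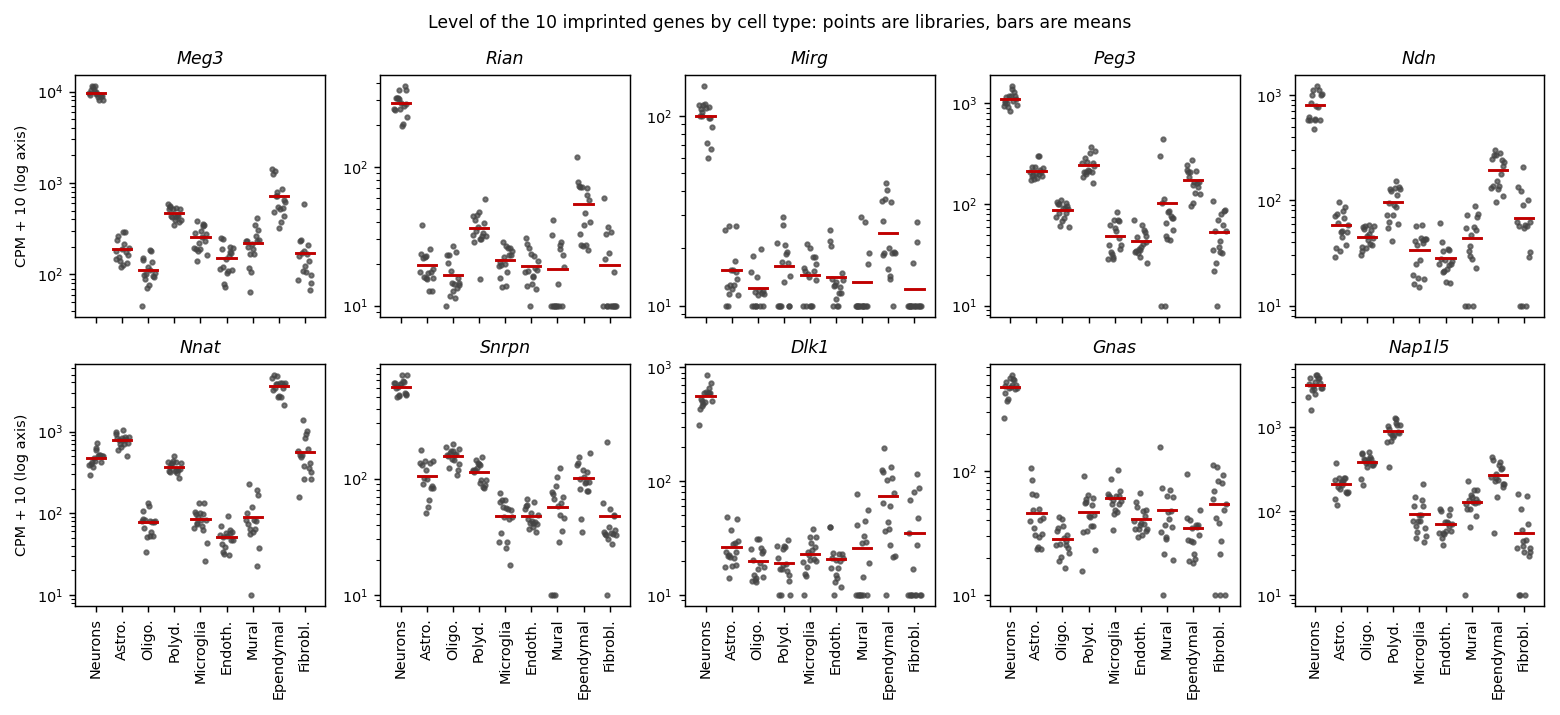
CPM plus 10, on a log axis, of each of the 10 imprinted genes (panels) in the 9 cell types (x axis), where points are the 16 libraries and red bars are their means. Neurons are highest for 9 genes, whereas for Nnat the ependymal cells (2128 to 4966 CPM) lie above neurons (282 to 721 CPM) in every library.

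Meg3, the first noncoding RNA in the chain of the chromosome 12 domain, lay between 8038 and 11622 CPM in neurons, with a median of 9425, and no library of any other cell type exceeded 1424 CPM. It averaged 9643 ± 1109 CPM in neurons against 257 ± 60.4 in all other cells (SD, n = 16), a difference of 5.20 ± 0.09 log2 units (SE, adjusted p = 1.28e-27). Among the other types, ependymal cells came next (311 to 1424 CPM, median 621), then polydendrocytes (336 to 574 CPM, median 429) and microglia (129 to 376 CPM, median 233). The step from neurons to ependymal cells was 3.86 ± 0.61 on the log2(CPM + 10) scale (SD over 16 libraries, adjusted p = 0.000144, exact sign-flip permutation test, two-sided, 80 neighbour pairs of the 10 genes), and the steps down to polydendrocytes (0.53, adjusted p = 0.00763) and to microglia (0.92, adjusted p = 0.000144) also passed. Neighbours from microglia through mural cells, astrocytes and fibroblasts to endothelial cells did not differ beyond their spread, with adjusted p from 0.252 to 0.975. Oligodendrocytes were lowest, at a median of 92.1 CPM.

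Rian and Mirg, further along the same chain of transcripts, followed Meg3 at lower counts. Rian lay between 187 and 374 CPM in neurons (median 277), and averaged 278 ± 53.3 CPM against 15.6 ± 4.81 in the other cells (SD, n = 16), a difference of 4.15 ± 0.10 log2 units (SE, adjusted p = 2.2e-24). Mirg lay between 49.9 and 134 CPM (median 92.4), and averaged 90.1 ± 21.0 against 5.14 ± 2.89 (SD, n = 16), a difference of 4.13 ± 0.12 log2 units (SE, adjusted p = 1.29e-22). In ependymal cells Rian reached a median of 41.9 CPM (15.3 to 108) and Mirg 9.02 CPM (0 to 34.5). The step from ependymal cells to polydendrocytes did not pass for Rian (0.48, adjusted p = 0.0873) and passed for Mirg (0.56, adjusted p = 0.0262). Outside neurons and ependymal cells, Mirg gave 3 to 38 UMIs per cell type over all libraries, so that differences among those types were not detectable at this depth.

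Dlk1, the paternally expressed gene of the domain, lay between 304 and 853 CPM in neurons (median 551). It averaged 550 ± 127 CPM against 18.6 ± 8.58 in the other cells (SD, n = 16), a difference of 4.91 ± 0.14 log2 units (SE, adjusted p = 6.01e-23). Ependymal cells were second, at a median of 52.3 CPM with a wide range of 0 to 186, and lay 1.19 log2 units above astrocytes (adjusted p = 0.00314). The 7 types from astrocytes down to polydendrocytes, with medians between 3.37 and 12.96 CPM, did not differ between neighbours (adjusted p from 0.822 to 0.99).

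Ndn and Snrpn, the genes of the Prader-Willi region, were both highest in neurons and differed in the second place. Ndn lay between 465 and 1213 CPM in neurons (median 757), and averaged 790.5 ± 242 against 55.9 ± 18.0 CPM in the other cells (SD, n = 16), a difference of 3.78 ± 0.06 log2 units (SE, adjusted p = 3.13e-28). Ependymal cells followed for Ndn at a median of 185 CPM (85.7 to 291), 1.02 log2 units above polydendrocytes in 16 of 16 libraries (adjusted p = 0.000144). Snrpn lay between 493 and 772 CPM in neurons (median 620), and averaged 608 ± 90.3 against 86.8 ± 17.5 CPM (SD, n = 16), a difference of 2.78 ± 0.08 log2 units (SE, adjusted p = 2.1e-23). For Snrpn the second place belonged to oligodendrocytes, the myelinating glia, with a median of 150 CPM (96.6 to 189), 0.45 log2 units above polydendrocytes in 16 of 16 libraries (adjusted p = 0.000144), and ependymal cells stood at a median of 86.1 CPM.

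Peg3 and Nap1l5 shared a second place in polydendrocytes. Peg3 lay between 835 and 1488 CPM in neurons (median 1076), and averaged 1101 ± 176 against 116 ± 17.9 CPM in the other cells (SD, n = 16), a difference of 3.20 ± 0.07 log2 units (SE, adjusted p = 4.21e-26). Its median was 219 CPM in polydendrocytes, 197 in astrocytes and 156 in ependymal cells, with steps between these of 0.18 (adjusted p = 0.0142) and 0.33 log2 units (adjusted p = 0.0466). Nap1l5 lay between 1603 and 4223 CPM in neurons (median 3217), and averaged 3191 ± 726 against 269 ± 64.1 CPM (SD, n = 16), a difference of 3.52 ± 0.06 log2 units (SE, adjusted p = 2.63e-27). It reached a median of 861 CPM in polydendrocytes (329 to 1261) and 386 CPM in oligodendrocytes (193 to 492), and fell by steps of 1.85 and 1.20 log2 units along this order, each in 16 of 16 libraries (adjusted p = 0.000144). Fibroblasts were lowest for Nap1l5, at a median of 27.0 CPM.

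Gnas lay between 261 and 596 CPM in neurons (median 478), and averaged 469 ± 83.7 against 32.9 ± 8.40 CPM in the other cells (SD, n = 16), a difference of 3.82 ± 0.10 log2 units (SE, adjusted p = 1.03e-23). It was the one gene of the 10 with microglia in second place, at a median of 50.7 CPM (23.3 to 92.7). The step to polydendrocytes, next by mean log2(CPM + 10), did not pass (0.45, adjusted p = 0.0671, exact sign-flip permutation test). No neighbours below that differed by the same test (adjusted p from 0.476 to 0.99). The counts give 1 value for all transcripts of the locus and do not separate the G protein subunit from the others.

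Nnat was the exception. It was highest in ependymal cells, with 2128 to 4966 CPM (median 3742), and these cells held 48.5% of its UMIs. There it averaged 3591 ± 804 CPM against 341 in the other cells (SD, n = 16), a difference of 3.34 ± 0.08 log2 units (SE, adjusted p = 5.56e-30, 26.7% of 15472 genes tested higher in these cells). Astrocytes followed at a median of 788 CPM (497 to 1040), higher than the other cells by 0.64 ± 0.08 log2 units (SE, adjusted p = 3.99e-10, 29.7% of 14598 genes tested higher), in 15 of 16 libraries. The step from ependymal cells to astrocytes was 2.17 log2 units in 16 of 16 libraries (adjusted p = 0.000144). Fibroblasts (median 487 CPM, 148 to 1368) and neurons (median 477 CPM, 282 to 721) did not differ (0.05, adjusted p = 0.975), and neurons lay 0.35 log2 units above polydendrocytes (adjusted p = 0.00637). Against all other cells, Nnat in neurons differed by -0.48 ± 0.09 log2 units (SE, adjusted p = 3.67e-05), lower in 11 of 16 libraries. Oligodendrocytes, microglia, mural and endothelial cells were low, with medians of 41.9 to 73.1 CPM.

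In the 6 cell types other than neurons, ependymal cells and astrocytes, every one of the 10 genes was lower than in the other cells of the same library, and in ependymal cells and astrocytes the 9 genes other than Nnat were lower; each of these fits counts the neurons among the other cells. Nnat in fibroblasts (-0.41 ± 0.12, SE) was lower in only 10 of 16 libraries, and its call was lost in DESeq2 (adjusted p = 0.0858) and without the 4 libraries that share barcodes (-0.17, adjusted p = 0.325). The share of all genes tested that were lower was 42.3% in astrocytes, 45.3% in oligodendrocytes, 34.8% in polydendrocytes, 46.2% in microglia, 45.4% in endothelial cells, 34.8% in mural cells, 37.5% in ependymal cells and 34.2% in fibroblasts.

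RNA that is free in the suspension gives UMIs of neuronal genes in other cells, so each cell type was also set beside barcodes with 20 to 100 genes of the same library, the nearest these files hold to droplets without a cell. These barcodes were used in 14 libraries, 325 to 2800 per library with 36708 to 222091 UMIs. In the 2 libraries that stood apart, the deposited barcodes begin at 100 genes and not at 20. WT oil replicate 3 held 3 such barcodes and Esr1cKO tamoxifen replicate 3 held 5, and both libraries were left out. Meg3 averaged 1058 ± 449 CPM in the barcodes of these 14 libraries (SD, n = 14), which was above its level in every type but neurons. The barcodes were not alike between libraries. In Esr1cKO tamoxifen replicate 2, 431 of them held 134256 UMIs, 20 of Meg3. In WT oil replicate 2, 1290 held 97974 UMIs, 169 of Meg3. Neurons were above these barcodes for all 10 genes, by 0.67 log2 units for Nnat (10 of 14 libraries, adjusted p = 0.0275) and by 1.86 to 3.36 for the other 9 (14 of 14 libraries, adjusted p = 0.000343; exact sign-flip permutation test on log2(CPM + 10), two-sided, 90 tests). This test was run on the 10 genes alone, so that no share of all genes stands beside its counts. Outside neurons, 5 combinations lay above the barcodes. Nnat was above them in ependymal cells by 3.64 and in astrocytes by 1.43 log2 units, and Nap1l5 in polydendrocytes by 1.35, each in 14 of 14 libraries (adjusted p = 0.000343). Ndn was above them in ependymal cells by 0.86 (12 of 14 libraries, adjusted p = 0.0114) and Snrpn in oligodendrocytes by 0.74 (11 of 14 libraries, adjusted p = 0.00938). Meg3, Rian and Mirg in ependymal cells were not above them (-0.43, 0.53 and 0.05 log2 units, adjusted p from 0.163 to 0.874), nor was Gnas in microglia (-0.23, adjusted p = 0.435). Peg3 was not above them in polydendrocytes, astrocytes or ependymal cells (0.30, 0.12 and -0.11 log2 units, adjusted p = 0.148, 0.636 and 0.503 by the same permutation test). In the 7 types other than neurons and ependymal cells, Meg3 lay below the barcodes, with differences of -3.21 to -1.04 log2 units (adjusted p from 0.000343 to 0.00424). How much free RNA the cells held was not measured. The comparison therefore does not tell whether a gene that is not above the barcodes is expressed in a cell type. The calls of Nnat in neurons and of Ndn in ependymal cells were lost with barcodes of 20 to 50 genes (adjusted p = 0.0732 and 0.0605), and that of Nnat in neurons also without Esr1cKO oil replicate 1, Esr1cKO oil replicate 4 or WT tamoxifen replicate 3 (adjusted p = 0.0514, 0.0523 and 0.0506). Meg3 in ependymal cells passed as lower than the barcodes when these held 20 to 50 genes (adjusted p = 0.0217) and without Esr1cKO tamoxifen replicate 2 (adjusted p = 0.0179). Dlk1 was below the barcodes in all 8 types other than neurons, with differences of -3.08 to -1.30 log2 units.

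**Figure D2:**
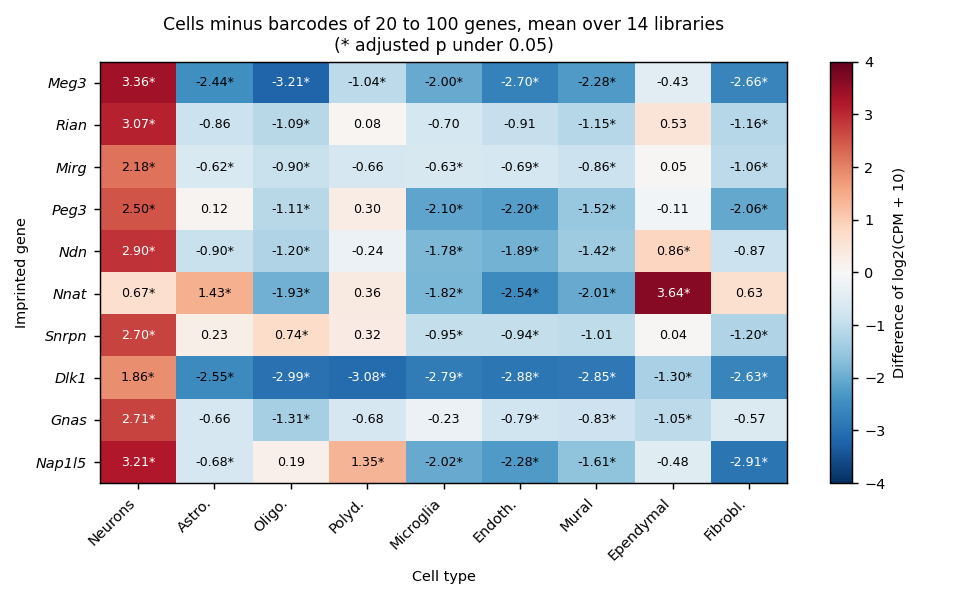
Difference of log2(CPM + 10) between each cell type (x axis) and barcodes of 20 to 100 genes, averaged over 14 libraries, for each imprinted gene (y axis); stars mark an adjusted p under 0.05 in the exact permutation test and red is higher in the cells. Neurons are red for all 10 genes, and outside neurons the strongest red cells are Nnat in ependymal cells (3.64) and astrocytes (1.43) and Nap1l5 in polydendrocytes (1.35).

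Each gene was also set against neuronal markers counted in the same cells. The markers counted for this were Snap25, Syt1 and Stmn2. The neurons themselves held 288.7 UMIs of Meg3 per 100 UMIs of these markers, and the other types stood at 0.139 to 1.89 times that ratio. For Nnat the ratio was 217 times the neuronal one in ependymal cells, 34.1 times in fibroblasts and 32.7 times in astrocytes, against 3.2 times in the barcodes of few genes. In ependymal cells all 10 genes stood above the neuronal ratio, with Ndn at 6.73, Rian at 4.39, Snrpn at 4.27, Peg3 at 4.11, Mirg at 3.87, Dlk1 at 3.19, Nap1l5 at 2.44, Meg3 at 1.89 and Gnas at 1.33 times, over 565 marker UMIs. The barcodes of few genes stood at 0.523 (Meg3) to 1.27 times (Dlk1) for these 9. Elsewhere, Snrpn stood at 7.58 times in oligodendrocytes, Nap1l5 at 3.73 times in oligodendrocytes and 2.64 times in polydendrocytes, and Peg3 at 3.53 times in astrocytes. Of these markers, Stmn2 stood high in endothelial cells (247 CPM) and Snap25 in polydendrocytes (265 CPM), which lowers the ratios of these types. These ratios are descriptions with no test.

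In single cells, a UMI of Meg3 was found in 89.7% of neurons and 8.67% of astrocytes, at median depths of 1489.5 and 482 UMIs. With each cell thinned to 500 UMIs, which left out 1817 neurons and 7213 astrocytes below that depth, the shares were 93.5% (95% Clopper-Pearson interval 92.9% to 94.0%, counting error only) and 7.15% (6.53% to 7.81%). Endothelial cells stood at 5.65% and oligodendrocytes at 4.56%, below ependymal cells (21.8%) and polydendrocytes (20.4%). For Meg3, neither ependymal cells nor polydendrocytes lay above the barcodes of few genes. Whether these shares come from the cells' own RNA was not tested. At the same depth Nap1l5 was found in 64.7% of neurons, 34.5% of polydendrocytes, 16.7% of oligodendrocytes and 2.53% of endothelial cells. Nnat was found in 68.4% of ependymal cells, 26.8% of astrocytes, 17.7% of neurons, 15.8% of polydendrocytes and 2.15% of endothelial cells. Peg3 was found in 38.8% of neurons, Ndn in 27.8%, Snrpn in 23.3%, Dlk1 in 19.3%, Gnas in 17.9%, Rian in 13.5% and Mirg in 4.81%, against at most 1.69% of endothelial cells for any of these 7. A thinned neuron held a mean of 3.21 of the 10 genes, and 0.74% of neurons held none. Ependymal cells held 1.31, polydendrocytes 0.944, astrocytes 0.619 and endothelial cells 0.168, with none in 84.6% of endothelial cells.

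Beside the 10, the list of 62 other imprinted genes, chosen from general knowledge of imprinting and with earlier results of these data known, gave 57 genes read here, of which 48 were tested in neurons. Of these, 35 were higher in neurons than in the other cells, 10 were lower and 3 did not pass, against 39.0% and 40.7% of all genes tested. The largest changes, each in 16 of 16 libraries, were in Dlx5, a homeobox gene of inhibitory neurons (log2 fold change 5.69 ± 0.27, SE), Usp29, which shares its locus with Peg3 (5.21 ± 0.16), and Magel2, a neighbour of Ndn (4.99 ± 0.13). Gatm, which makes the creatine precursor guanidinoacetate, was lower by the same measure (-5.20 ± 0.09), as was Igf2, a growth factor of the meninges and vessels (-4.52 ± 0.16). Rtl1, a retrotransposon-derived gene between Meg3 and Rian on the opposite strand, was higher (4.17 ± 0.15; 1077 of its 1203 UMIs lay in neurons). The adjusted p of these 6 ran from 4.1e-28 to 1.6e-17. The list is not limited to genes imprinted in brain, and whether each listed gene is imprinted in these cells was not measured.

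Among neurons, the clusters differed in which of the 10 genes they carried. The 9114 neurons were clustered again, without the 10 genes and the 62 other listed imprinted genes, into 24 clusters called here by their leading gene. The clusters rest on other genes of the same cells, so that the tests describe how the imprinted genes lie over them. Of the clusters, 23 were tested against the other neurons of the same library and 17 held at least 100 cells. Over the 23 clusters the 10 genes passed in 164 of 230 tests, against 24.3% of all genes tested, and were higher in 25, against 4.30%, and lower in 139, against 20% (edgeR quasi-likelihood test with the library as a block, adjusted p under 0.05). The split depends on the scaling, since DESeq2 size factors in place of TMM moved the fold changes of the 17 larger clusters by -0.08 to 0.39 log2 units (median 0.19) and of the 6 smaller ones by -0.11 to 1.15 (median 0.47), and gave 38 higher and 108 lower over the 23 clusters. The 10 genes held from 1620 (Mirg) to 176314 UMIs (Meg3) in neurons, and the shares of all genes were not matched for abundance. Over the 17 clusters, Nnat and Dlk1 each spanned 67.1-fold between the lowest and the highest level, Gnas 9.89-fold, Nap1l5 8.83-fold, Meg3 7.45-fold, Mirg 5.89-fold, Rian 5.80-fold, Ndn 5.60-fold, Snrpn 3.29-fold and Peg3 2.78-fold. The lowest level of Dlk1, Gnas, Nap1l5 and Peg3 was in the Crym cluster, which is described below.

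**Figure D3:**
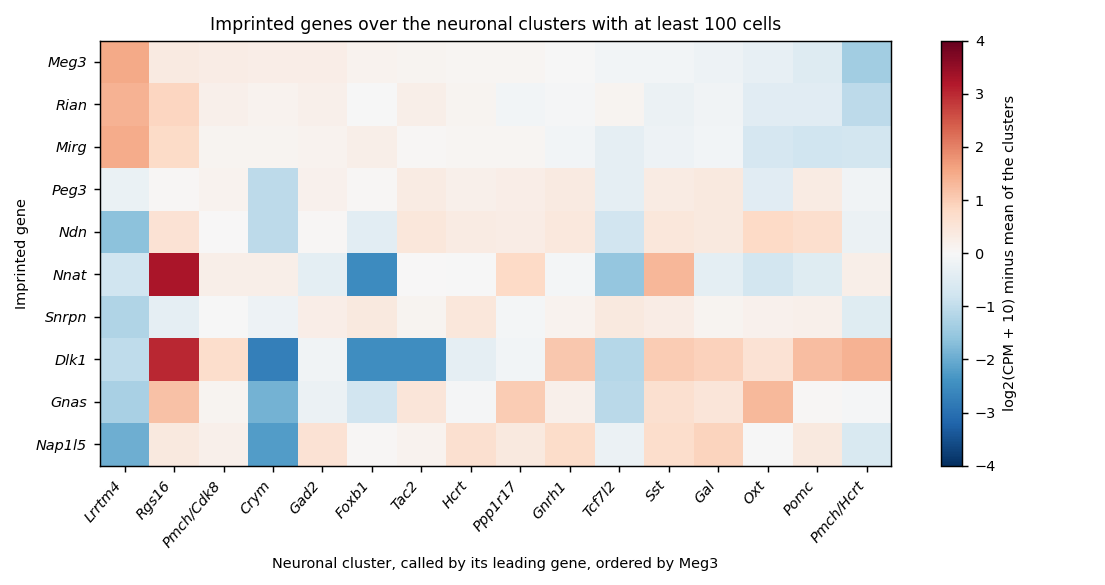
Level of each imprinted gene (y axis) in 16 of the 17 neuronal clusters of at least 100 cells (x axis, ordered by Meg3), as log2(CPM + 10) minus the gene's mean over the 17 clusters, with cells of all libraries summed. Meg3, Rian and Mirg are red together in the Lrrtm4 cluster, whereas Nnat and Dlk1 are darkest in the Rgs16 cluster (3058 and 2717 CPM).

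Among the 17 clusters of at least 100 cells, the Rgs16 cluster (783 neurons of 16 libraries) carried the highest Nnat and Dlk1. Its next genes were Igfbp5, a binding protein of insulin-like growth factors, and Vipr2, a receptor of the peptide VIP. Nnat lay between 2196 and 4939 CPM there (median 2891), and averaged 3148 ± 828 against 290 ± 66.0 CPM in the other neurons (SD, n = 16), a difference of 3.36 ± 0.07 log2 units (SE) in 16 of 16 libraries. Dlk1 lay between 1654 and 3623 CPM (median 2636), and averaged 2651 ± 511 against 403 ± 82.6 CPM (SD, n = 16), a difference of 2.67 ± 0.07 log2 units (SE) in 16 of 16 libraries. Every library of this cluster lay above every library of the other neurons for both genes. The 2 fold changes ran from 3.13 to 3.44 and from 2.51 to 2.71 over the alternatives and libraries left out. Gnas was higher there by 1.08 ± 0.08 log2 units (SE, 15 of 16 libraries, adjusted p = 3.47e-37), Rian by 0.66 ± 0.10 (16 of 16 libraries, adjusted p = 2.36e-10), Mirg by 0.66 ± 0.15 (13 of 16 libraries, adjusted p = 8.04e-05) and Ndn by 0.37 ± 0.08 (12 of 16 libraries, adjusted p = 1.12e-05). Snrpn was lower by the same test (-0.48 ± 0.09, SE, adjusted p = 8.18e-07), as was Peg3 (-0.21 ± 0.07, SE, adjusted p = 0.0213), whose call was lost in DESeq2, with wild-type libraries alone and without Esr1cKO oil replicate 1. Meg3 (0.14 ± 0.06, SE, adjusted p = 0.0638, edgeR) and Nap1l5 (-0.02 ± 0.07, SE, adjusted p = 0.864, edgeR) did not pass. Of the 9680 genes tested in this cluster, 30.7% passed in either direction, 1086 as higher and 1889 as lower. Malat1, a nuclear noncoding RNA, stood at 22283 CPM in this cluster against 3322 to 9594 in 15 of the other 16; its part in the result was not tested. Nnat in the remaining 16 clusters lay between 45.5 CPM in the Foxb1 cluster and 777 in the Sst cluster.

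The Lrrtm4 cluster (1048 neurons) carried the highest Meg3, Rian and Mirg and the lowest Ndn and Snrpn of the same 17 clusters. Lrrtm4 encodes a synaptic adhesion protein. The cluster was found in 14 libraries and in neither of the 2 libraries that stood apart. Meg3 lay between 18507 and 27559 CPM (median 23313), and averaged 23352 ± 2476 against 8653 ± 980 CPM in the other neurons (SD, n = 14), a difference of 1.27 ± 0.09 log2 units (SE, adjusted p = 2.4e-48) in 14 of 14 libraries. Rian was higher by 1.11 ± 0.11 and Mirg by 1.28 ± 0.14 log2 units (SE), each in 14 of 14 libraries. The 7 protein-coding genes were lower, from Peg3 at -0.50 ± 0.10 to Nap1l5 at -2.55 ± 0.10 (SE); Nap1l5 averaged 651 ± 355 against 3231 ± 671 CPM (SD, n = 14). The groups of libraries did not overlap for Meg3. These cells had a median of 781 UMIs, 7.01% mitochondrial UMIs and 20808 CPM of Malat1, where the median depth of all neurons was 1489.5 UMIs and where 62.6% of all genes tested passed, and the part of these in the result was not tested. The Cntn5 cluster of 89 neurons had a like profile, with 24514 CPM of Meg3 and 27470 CPM of Malat1 over all its cells, and Dlk1 at 0 of 109938 UMIs there, which allows up to 27.3 CPM.

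Of the 17 clusters, Dlk1 was lowest in the Crym, Tac2 and Foxb1 clusters, in which 8, 4 and 8 of the 10 genes passed as lower and none as higher, beside 22.5%, 17.6% and 21.5% of all genes tested that passed in either direction. In the Crym cluster (330 neurons; Crym encodes a thyroid hormone binding protein) it averaged 20.5 ± 24.4 CPM (SD, n = 10), and was lower than in the other neurons by 4.40 ± 0.27 log2 units (SE). The next genes of this cluster were Nrgn and Nfib. Slc17a6 stood at 16.7, Slc32a1 at 1.40 and Gad1 at 2.79 CPM there, against means of 224, 135 and 192 CPM in all neurons. Whether these cells lie in the hypothalamus was not tested. In the Foxb1 cluster (210 neurons), whose leading gene is a transcription factor of the mammillary region, Dlk1 was lower by 3.74 ± 0.22 log2 units (SE) with a median of 0 CPM over 14 libraries, and in the Tac2 cluster (107 neurons; Tac2 encodes neurokinin B) by 3.91 ± 0.28. Meg3 in the same 3 clusters differed by -0.62 ± 0.12, -0.46 ± 0.10 and -0.56 ± 0.12 log2 units (SE) after TMM scaling. In CPM over all cells, Meg3 stood at 10002 in the Crym, 9025 in the Tac2 and 9187 in the Foxb1 cluster. Its mean in all neurons was 9643 CPM, so that these 3 fold changes rest on the scaling. Of clusters under 100 cells, those led by Slc6a3, the dopamine transporter, and Vip had Dlk1 at 5270 and 1538 CPM over all their cells.

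**Figure D4:**
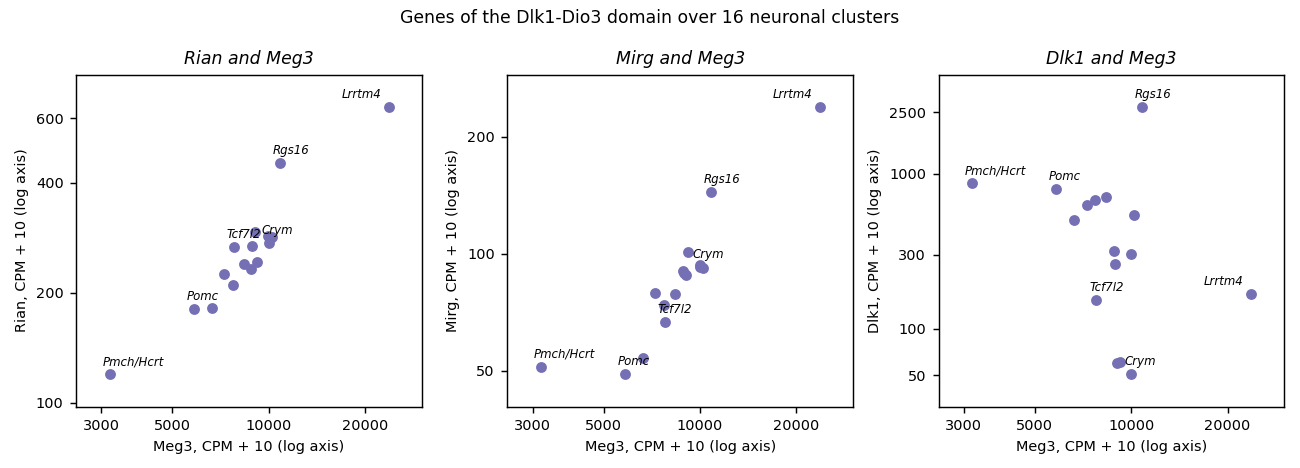
Rian, Mirg and Dlk1 (y axes) against Meg3 (x axes) over 16 of the 17 neuronal clusters of at least 100 cells, as CPM plus 10 on log axes, with cells of all libraries summed and 1 point per cluster. Rian and Mirg rise with Meg3 from the Pmch/Hcrt to the Lrrtm4 cluster, whereas Dlk1 does not follow Meg3.

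Over these 17 clusters, Pearson's r of log2(CPM + 10) was 0.934 for Meg3 and Rian, 0.896 for Meg3 and Mirg, 0.889 for Rian and Mirg and -0.335 for Meg3 and Dlk1. The points share libraries and clusters of unequal depth, and these values are descriptions. The Pmch/Hcrt cluster, which lay lowest for Meg3 (3176 CPM) and Rian (110 CPM), was the shallowest, with a median of 362.5 UMIs and 8.03% mitochondrial UMIs.

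Among the 17 clusters of at least 100 cells, the genes of the Prader-Willi region and the other coding genes had tops of their own. No top was tested against the next cluster, and some lay close. Over all cells of a cluster, Peg3 stood at 1367 CPM in the Gal and 1333 CPM in the Gnrh1 cluster. Ndn and Gnas were highest in the Oxt cluster (153 neurons; Oxt encodes oxytocin), with Ndn at 1195 ± 510 CPM (SD, n = 13; 0.49 ± 0.12 log2 units above the other neurons, SE, 10 of 13 libraries) and Gnas at 1039 ± 359 CPM (SD, n = 13; 0.91 ± 0.12, SE, 12 of 13 libraries). Peg3 and Nap1l5 were highest in the Gal cluster (696 neurons; Gal encodes the peptide galanin), with Peg3 at 1314 ± 256 CPM (SD, n = 16; 0.29 ± 0.06, SE, 14 of 16 libraries) and Nap1l5 at 4601 ± 994 CPM (SD, n = 16; 0.59 ± 0.06, SE, 16 of 16 libraries). Snrpn was highest in the Hcrt cluster (789 neurons; Hcrt encodes orexin), at 783 ± 135 CPM (SD, n = 16; 0.41 ± 0.06, SE, 15 of 16 libraries). Adjusted p of these 5 ran from 1.58e-12 to 0.000399; with the 8 wild-type libraries alone the calls of Ndn in the Oxt cluster and Peg3 in the Gal cluster were lost, the latter also without the filter on low counts. The Crym cluster was lowest for Peg3 (416 ± 132 CPM), Gnas (79.5 ± 58.4) and Nap1l5 (501 ± 215; SD, n = 10). Of all genes tested, 21.5%, 17.0% and 14.8% passed in either direction in the Oxt, Gal and Hcrt clusters. The r over clusters was 0.871 for Ndn and Gnas, 0.830 for Ndn and Nap1l5 and 0.823 for Peg3 and Nap1l5.

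By the same measure, the genes most like each member were looked up among genes with at least 500 UMIs in neurons. For Meg3 these were Zcchc7 (r = 0.966), Rian and Dopey1 (0.930), for Rian they were Meg3, Zcchc7 (0.899) and Numb (0.892), and for Mirg they were Wrn (0.938), Ubn2 (0.922) and Nfat5 (0.910). Dlk1 was most like Por (0.843), Six3 (0.789) and Crebrf (0.776), and Nnat most like Hmgn5 (0.798), Tekt1 (0.777) and Tob1 (0.773). Ndn was most like Rimklb (0.940), 1700037H04Rik (0.937) and Rps27a (0.931), Snrpn most like Tuba1b (0.967), Nars (0.963) and Srp19 (0.957), and Gnas most like Tmem176b (0.903), Ndn and Celf6 (0.863). Peg3 was most like Prmt2 (0.845), Traf3ip1 (0.844) and Gprasp2 (0.837), and Nap1l5 most like Impact (0.924), Flywch2 (0.914) and Phyh (0.912). Impact is not on the list of 62 genes, so that it was not left out of the clustering. The r is over 17 clusters that share libraries and is given with no p.

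Between the 4 groups of mice, none of the 10 genes passed in any of the 9 cell types, in all cells of a library or in the 7 neuronal clusters tested, in any of the 5 contrasts (edgeR quasi-likelihood test, Benjamini-Hochberg adjusted p from 0.751). Of all genes in the 9 cell types, 0% passed for tamoxifen in wild-type mice, for tamoxifen in Esr1cKO mice, for the interaction and for Esr1cKO against wild-type mice under oil, and 0.00154% (1 of 64864 tests) for Esr1cKO against wild-type mice under tamoxifen. At an unadjusted p under 0.05, 1, 3, 2, 2 and 1 of the 58 tests of the 10 genes passed in these 5 contrasts, against 3.29%, 3.57%, 4.84%, 4.87% and 3.18% of all tests, and DESeq2 gave 0 adjusted calls and 1, 3, 1, 1 and 1 at an unadjusted p under 0.05. The other 32 combinations of gene and cell type had counts too low to be tested. None of the other imprinted genes passed. The contrasts share control libraries and are not independent of each other.

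Meg3 in neurons was 9385, 9624 and 11302 CPM in WT oil mice, and 8038, 9055, 9464, 9840 and 10329 CPM in WT tamoxifen mice. In Esr1cKO mice it was 8096, 9041, 11449 and 11622 CPM under oil and 8773, 8836, 9072 and 10358 CPM under tamoxifen. The groups overlapped, and the log2 difference between tamoxifen and oil was -0.12 ± 0.14 in wild-type and -0.14 ± 0.14 in Esr1cKO mice (SE). In wild-type mice the other 9 genes differed in neurons by -0.11 to 0.25 log2 units, with SE of 0.16 to 0.29.

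**Figure D5:**
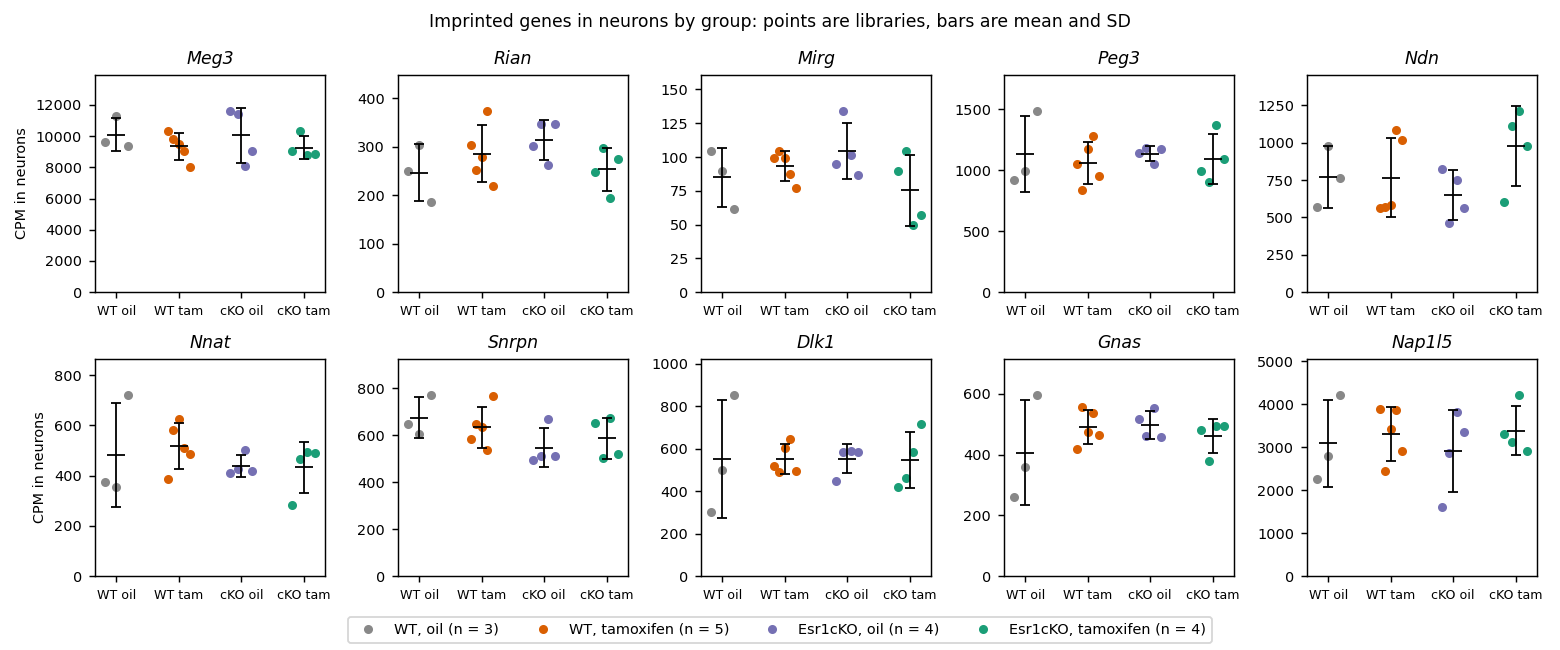
CPM of each imprinted gene in neurons (panels, y axis from 0) in the 4 groups of mice (x axis), where points are libraries and bars are mean and SD. The groups overlap for all 10 genes, as for Mirg, where Esr1cKO tamoxifen mice (49.9 to 105 CPM) reach below Esr1cKO oil mice (86.9 to 134 CPM).

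The lowest unadjusted p in neurons belonged to Mirg in Esr1cKO mice. It was 86.9, 95.1, 101 and 134 CPM under oil and 49.9, 56.9, 89.8 and 105 CPM under tamoxifen, so that 2 of the 4 tamoxifen libraries, one of them the library that stood apart, lay below all oil libraries and the others among them. The difference was -0.53 ± 0.21 log2 units (SE, unadjusted p = 0.0231, adjusted p = 0.9995, edgeR), and its interaction with genotype -0.67 ± 0.30 (SE, unadjusted p = 0.0416). Ndn in neurons of Esr1cKO mice was 465, 562, 749 and 825 CPM under oil and 603, 979, 1112 and 1213 CPM under tamoxifen (0.58 ± 0.28 log2 units, SE, unadjusted p = 0.0539, edgeR). The highest Ndn value was in Esr1cKO tamoxifen replicate 3, one of the 2 libraries that stood apart.

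In the other cell types, the tests with an unadjusted p under 0.05 were of Meg3 in ependymal cells for tamoxifen in wild-type mice (-0.83 ± 0.37), Ndn in polydendrocytes (0.82 ± 0.33) and ependymal cells (0.72 ± 0.34) for tamoxifen in Esr1cKO mice, and Ndn in polydendrocytes for the interaction (1.13 ± 0.47). Between genotypes they were Nnat in astrocytes (-0.50 ± 0.18) and Peg3 in oligodendrocytes (0.50 ± 0.22) under oil, and Nnat in oligodendrocytes under tamoxifen (-0.79 ± 0.24; log2 units, SE). No adjusted p of these in edgeR was under 0.861.

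Of the 90 combinations of gene and cell type, the groups did not overlap in 2 for tamoxifen in wild-type mice, against 3.55% of all genes, and in 4 for genotype under oil, against 5.43%. For tamoxifen in Esr1cKO mice (2.49% of all genes) and for genotype under tamoxifen (1.53%) there were none. Nnat in oligodendrocytes was 69.4, 71.1 and 73.1 CPM in WT oil mice and 41.4, 42.1, 48.5 and 55.5 CPM in Esr1cKO oil mice. Peg3 in oligodendrocytes was 63.1, 66.0 and 73.1 CPM in WT oil mice and 85.7, 91.5, 92.8 and 101 CPM in Esr1cKO oil mice. The other 4 were Rian in oligodendrocytes and in microglia (the latter in both contrasts) and Dlk1 in mural cells, and rested on 0 to 2 UMIs per library in WT oil mice.

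In the 7 neuronal clusters tested between groups, among them Gad2, Pmch/Cdk8, Hcrt, Rgs16, Gnrh1 and Ppp1r17, 5, 4, 7, 4 and 1 of the 65 tests of the 10 genes had an unadjusted p under 0.05, against 3.63%, 3.51%, 4.74%, 4.30% and 3.64% of all tests, and none passed after adjustment (0% of all genes in each contrast). For tamoxifen in wild-type mice, 4 of the 5 were Gnas, in the Rgs16 (1.07 ± 0.42), Pmch/Cdk8 (0.79 ± 0.38), Gnrh1 (0.62 ± 0.29) and Hcrt clusters (0.60 ± 0.28 log2 units, SE), which come from the same libraries. In neurons as a whole Gnas was 261, 360.5 and 596 CPM in WT oil mice and 418 to 557 CPM in WT tamoxifen mice, so that WT oil replicate 3, which stood apart, was the highest of the 8. In the Hcrt cluster of Esr1cKO mice, Rian differed between tamoxifen and oil by -0.57 ± 0.24 and Mirg by -1.08 ± 0.34 log2 units (SE), and Ndn differed by 0.97 ± 0.42 in the Rgs16 and by 0.81 ± 0.32 in the Ppp1r17 cluster.

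In all cells of a library the values also move with the makeup of cell types, and fewer cells of a type and less RNA per cell cannot be told apart there. Each library held 243 to 904 neurons, and the share of neurons overlapped between groups (medians 15.7%, 15.5%, 17.6% and 15.2% of the cells in WT oil, WT tamoxifen, Esr1cKO oil and Esr1cKO tamoxifen mice). The one test with an unadjusted p under 0.05 was Nnat under oil, at 563, 771 and 1119 CPM in WT mice and 367, 400, 471 and 711 CPM in Esr1cKO mice (-0.71 ± 0.27 log2 units, SE, adjusted p = 0.832, edgeR; 0% of all genes passed). Ependymal cells, in which Nnat is highest, were 4.67% to 10.9% of the cells in WT oil and 2.38% to 6.49% in Esr1cKO oil mice, and their part in the difference was not tested.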

How the data were processed

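Drop-seq libraries of 16 mice were used, 1 per mouse. The deposited values are UMI counts, whole numbers for each gene and barcode that are neither normalized nor pooled; the submitters' processing notes name STAR 2.6 and mm10. The study's cell filter (more than 200 and fewer than 4000 genes, under 15% mitochondrial UMIs) was applied here. Cells were clustered in Seurat 5.3.0 with anchors between the 4 groups (2000 variable genes, 30 dimensions, 20 components, resolution 0.05), and neurons again (500 variable genes, resolution 0.7), in both cases without imprinted genes among the variable genes. Called doublets (476 of 55675 cells, scanpy 1.11.5) were kept, and removed only in an alternative.

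Sums of UMIs by library and by cell type (at least 10 cells) or neuronal cluster (at least 3 cells, 4 libraries) were tested by edgeR 4.0.16 (quasi-likelihood, TMM, filterByExpr, Benjamini-Hochberg over all genes tested, two-sided), with the library as a block between cell types and 1 fit of the 4 groups between groups. The method was tested on simulated data. Levels between neighbouring types were compared by exact sign-flip permutation tests on log2(CPM + 10), a scale that understates the change of low genes. Types were ordered by their mean on this scale, which need not follow the order of their CPM. Where a library is compared with another, the p-values measure the spread between mice. The members and gene lists were chosen with earlier results of these data known. All 10 members were tested in every comparison; also named are, of the other imprinted genes, the 6 with the largest change in neurons of one direction in at least 14 libraries and, for each member, the 3 genes most like it over the neuronal clusters. Single neuronal clusters are described by the members highest or lowest there, chosen after their values were seen. The study's methods give 4 mice on each of 4 days, and the labels do not give the days. Runs of 4 successive library numbers were tried as a block, and 11 of 23 pairs of libraries in the same run deviated together (r over 0.1). Alternatives are listed in the closing section. The values of 1 neuronal cluster are not reported here, although it is in the counts over clusters.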

Additional observations from a re-analysis of the deposited data

Results flagged for a closer look

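For the 10 genes, 60 groups of 4 or 5 libraries, in neurons and in all cells of a library, were checked for a library far from the others by Dixon's ratio, and 8 were. Chance flags about 1 in 20 groups. The groups share libraries, and the share flagged over all genes is not given here, so that the 8 are not read as a trait of these genes. In neurons, Nnat was 281.9 CPM in Esr1cKO tamoxifen replicate 1, where the next library of the group stood at 467.9 CPM. Snrpn was 669.6 CPM in Esr1cKO oil replicate 3, above the next at 513.0 CPM. Dlk1 was 450.0 CPM in Esr1cKO oil replicate 1, below the next at 583.2 CPM. Gnas was 377.7 CPM in Esr1cKO tamoxifen replicate 2, below the next at 480.4 CPM. In all cells of a library, Meg3 was 4895 CPM in Esr1cKO oil replicate 1, above the next at 3126 CPM. Rian was 125.5 CPM in Esr1cKO tamoxifen replicate 1, above the next at 82.9 CPM. Ndn was 535.6 CPM in Esr1cKO tamoxifen replicate 3, one of the 2 libraries that stood apart, above the next at 308.8 CPM. Nap1l5 was 1966 CPM in WT tamoxifen replicate 1, above the next at 1142 CPM.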

How the results depend on the processing

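The counts of calls stayed within 1.5 times in all 278 alternatives. In the contrasts of groups and in all cells of a library the count was 0 throughout, so that this limit informs on the other results only. Of the 90 tests of the 10 genes by cell type, 90 passed, and 89 in DESeq2 and without the 4 libraries that share barcodes. Of the tests by neuronal cluster 164 passed, with 123 (mitochondrial share under 5%) to 171 (imprinted genes among the variable genes) over the alternatives. Against the barcodes of few genes 65 of 90 tests passed, and 53 with barcodes of 20 to 50 genes, with no share of all genes beside these counts. Leaving out 1 library at a time gave 90 to 90 calls by cell type, 44 to 45 of the other imprinted genes in neurons, 156 to 168 by neuronal cluster, 57 to 74 against the barcodes of few genes, and 0 to 0 in each contrast of groups and in all cells. Of 217 single values, 176 kept their call in every alternative and 41 lost it in some; 2 of them turned direction in some setting, and of all 230 tests by neuronal cluster 7 did so with DESeq2 size factors and 4 in DESeq2. In the Pmch/Cdk8 cluster, Meg3 went from -0.44 to 0.0037 with DESeq2 size factors, and Peg3 from -0.35 to 0.056 with DESeq2 size factors and to 0.063 in DESeq2; the cause was not tested. In the group contrasts no member passed in any of 29 settings (smallest adjusted p 0.225). Among the other imprinted genes, 4 tests passed without the filter on low counts, of Copg2 in oligodendrocytes and Igf2 in ependymal cells.

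Runs of 4 successive library numbers, which the labels do not tie to days of processing, were also used as a replicate block; the fourth run holds no WT oil mouse. Of 23 pairs of the same block, r ran from -0.224 to 0.925 (median 0.054) and 11 exceeded 0.1, and 10 of 16 libraries lay closest to one of their own block. With this block 0 members passed in each of the 5 contrasts, and 3, 2, 3, 5 and 2 had an unadjusted p under 0.05 in the 9 cell types.

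The alternative without 2 libraries was planned for the libraries numbered 2. The 2 libraries that stand apart carry the number 3 here, so leaving those out was added after seeing the data, as were the fits without the 4 libraries that share barcodes and without barcodes found in more than 1 library. Rian and Mirg are limited by depth outside neurons, and 32 of the 90 group tests by counts too low to be fitted.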

Other observations

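Of the kept cells, 214 formed a cluster whose leading genes were Bpifa1 and Tshb. It held 1 detected marker of ependymal cells, 1 of choroid plexus and all 4 listed for the pituitary pars tuberalis, Tshb, Cga and Pitx1 among them. Names were given from the 9 cell types only, so that it stayed unnamed. It entered no comparison of the report as a cell type. Over the 10 libraries with at least 10 of its cells, Meg3 had a median of 706 CPM (397 to 3371), Nnat 521 CPM (198 to 1956), Peg3 234 CPM (0 to 624), Gnas 125 CPM (0 to 768), Nap1l5 103 CPM (0 to 541), Ndn 90.7 CPM (0 to 208), Snrpn 62.6 CPM (0 to 128) and Dlk1 51.5 CPM (0 to 250). Rian and Mirg had a median of 0 CPM, with 15 and 5 UMIs in all.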
